A study of Mus musculus with 12 samples.

Results

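The comparison described here is the effect of removing 1 kidney on the kidney left behind in control mice of a Pkd1 model of polycystic kidney disease. It uses 6 of the 12 samples of the experiment: 3 kidneys from CreMinus mice after unilateral nephrectomy (UNx) and 3 from CreMinus mice after a sham operation. All mice belong to a Pkd1 mouse model, were given tamoxifen and were operated on as adults of 6 to 8 weeks, and the kidney was taken 4 weeks after surgery. The CreMinus mice lack Cre, the recombinase that tamoxifen activates in such models, so that Pkd1 is left undeleted in them. The other 6 samples are the same 2 operations in CrePlus mice, 3 each, and are used only for values set beside those of the CreMinus kidneys. The labels used here give neither the Pkd1 allele, the promoter that drives Cre, the side of the kidney, the sex of the mice nor the time of day of the harvest. They list 3 mice for each group, with 1 library each.

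After the loss of a kidney, the remaining one takes over the filtration and transport of both. It is known to grow mainly by enlargement of its tubule cells, a process in which growth factors, PI3K and mTORC1 signalling, and the synthesis of ribosomes and lipids take part, with an early and limited wave of cell division. Each remaining nephron also has to excrete more phosphate and reabsorb more sodium and calcium. In Pkd1 mutant mice, nephrectomy is used to hasten cyst growth, which makes the CreMinus kidneys the reference for that design.

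Total counts were 18914300 to 22181769 in 5 of the 6 libraries and 42025815 in UNx replicate 1. Xist and 4 Y-linked genes showed that each group held 2 female and 1 male mouse. Sham replicate 3 and UNx replicate 1 were male, with Xist at 1.31 and 0.154 CPM (a gene's counts scaled to the size of its library) against 497 to 1170 CPM in the other 4. The numbers in the library titles were lower in all sham libraries (1745 to 1747) than in all UNx libraries (1749, 1750 and 1752), so surgery and the order of the numbers cannot be told apart. The tissue label matched its defining genes in all 6 libraries: the thick ascending limb gene Umod was at 4680 to 6070 CPM, the proximal tubule phosphate carrier Slc34a1 at 5100 to 6950 CPM, and the podocyte gene Nphs1 at 43.5 to 72 CPM. Sham replicate 3 stood apart in macrophage genes and UNx replicate 2 in the injury gene Havcr1, as described with those genes. In bulk tissue, fewer cells of a type and less RNA per cell cannot be told apart.

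No gene passed the test of UNx against sham in CreMinus kidneys. Of 14970 genes tested, edgeR called 0 (0%) at an adjusted p under 0.05, and the smallest adjusted p was 1.0. DESeq2, run on the same genes, called 2 (0.0134%): Slc34a2 and Ttr, both higher after UNx. An unadjusted p under 0.05 in edgeR was reached by 194 genes (1.3%), of which 100 (0.668%) were higher and 94 (0.628%) lower. Uniform p-values would put 5% of the genes under that threshold. All 3 UNx libraries lay above all 3 sham libraries for 399 genes (2.67%) and below them for 328 genes (2.19%). These shares are the background for counts of members at that threshold or without overlap. For counts of members by sign alone the background is near even: 7701 of the 14970 genes (51.4%) had a positive and 7269 a negative log2 fold change. With each of the 6 CreMinus libraries left out in turn, the median log2 fold change took both signs in 23 of the 41 gene lists and kept 1 sign in 18.

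The differences were small. The median size of the log2 fold change over all genes was 0.089, below the median standard error of 0.17. For 12110 genes (80.9%) the 95% interval of the fold change lay inside a 2-fold change in either direction, and for 8950 genes (59.8%) inside a 1.5-fold change. Among the 13523 genes with a mean of at least 1 CPM, 88.1% had an interval inside 2-fold. A change of 2-fold or more was estimated for 136 genes. Of these, 46 had a mean of at least 1 CPM, and 12 of the 46 had no overlap between the groups. For most kidney genes, then, the model bounded the difference between UNx and sham to less than 2-fold. It cannot show that the difference is 0. The intervals rest on a spread estimated over all 12 libraries, CrePlus kidneys included.

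Sex separated the libraries and surgery did not. The first principal component held 55.4% of the variance and set the 4 female libraries (13.2 to 28.7) apart from the 2 male libraries (-45 and -46). Its leading genes were Slco1a1, an organic anion carrier of male kidneys, Xist and the Y-linked genes. On the second component, with 17.8% of the variance, sham libraries lay at 9.1, -2.7 and 21.7 and UNx libraries at -15.4, -30.5 and 17.7, so the groups overlapped. Between libraries of the same sex, the root mean square difference in log2 CPM was 0.331 to 0.439 for females of different surgery and 0.422 for the male pair. The 2 female sham libraries differed by 0.401 and the 2 female UNx libraries by 0.47. Pairs of unlike sex differed by 0.58 to 0.682. The female pairs of different surgery thus lay below the female UNx pair (0.47) and on both sides of the female sham pair (0.401). With 1 male in each group, the male pair had no pair of the same surgery to be set against.

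**Figure D1:**
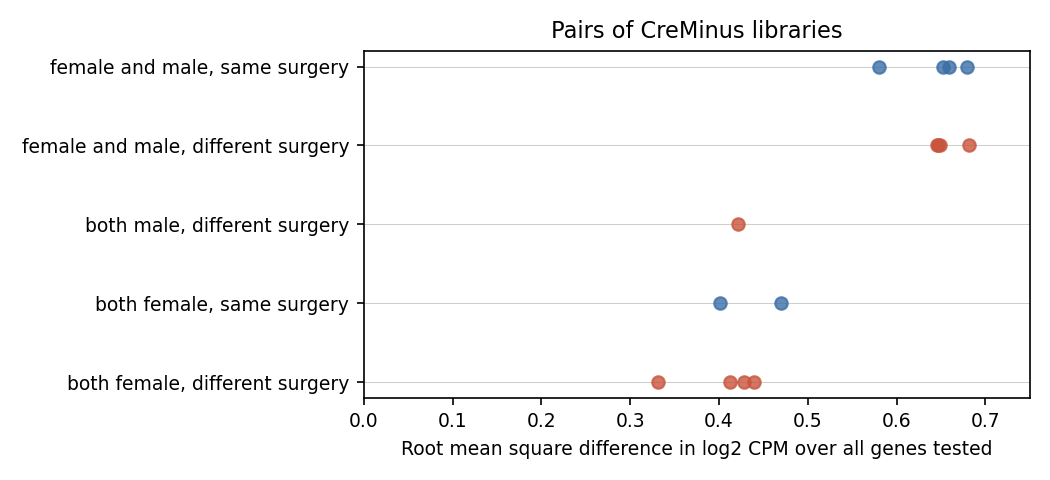
Root mean square difference in log2 CPM over all genes tested (x axis) for each of the pairs of CreMinus libraries, grouped by sex and surgery (y axis); each point is 1 pair, red for different and blue for the same surgery. Same-sex pairs lie between 0.331 and 0.47 whatever the surgery, and pairs of unlike sex between 0.58 and 0.682.

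The targeted gene and the gene of the study's title showed no difference that passed. Pkd1, which encodes polycystin-1, was at 76.8, 60.3 and 57.8 CPM in sham replicates 1, 2 and 3 and at 49.4, 49.3 and 71.6 CPM in UNx replicates 1, 2 and 3. The groups overlapped, with a log2 fold change of -0.20 ± 0.18 (SE; 95% interval -0.59 to 0.20; adjusted p = 1.0). Irf5, an interferon regulatory factor of macrophages, was at 12.9, 11.8 and 15.8 CPM in sham and at 15.4, 11.2 and 13.2 CPM in UNx kidneys. Its log2 fold change was -0.02 ± 0.29 (interval -0.66 to 0.61), and its sign turned when sham replicate 3 or UNx replicate 2 was left out (0.10 and 0.09).

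A phosphate carrier, Slc34a2, had the smallest p of all named genes. It encodes the sodium phosphate cotransporter NaPi-IIb (chr5:53049353-53071664, GRCm38). It was at 5.07, 5.68 and 6.55 CPM in sham and at 10.1, 9.7 and 10.5 CPM in UNx kidneys. Every UNx library was above every sham library. The log2 fold change was 0.81 ± 0.13 (interval 0.52 to 1.10), with an adjusted p of 1.0 in edgeR and 0.00123 in DESeq2. In CrePlus kidneys it was 0.30 (adjusted p = 0.725), where sham libraries were already at 9.09 to 11.7 CPM and UNx libraries at 11.8 to 13.4 CPM. The difference between the 2 effects did not pass (log2 difference -0.51, adjusted p = 1.0).

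Cyp24a1, the mitochondrial hydroxylase that inactivates vitamin D (chr2:170482957-170497145), was at 103, 47.8 and 34.3 CPM in sham and at 166, 165 and 186 CPM in UNx kidneys. The 3 UNx libraries were close together and above the sham libraries, which were spread more widely. Its log2 fold change was 1.48 ± 0.52 (adjusted p = 1.0) and 2.27 in CrePlus kidneys (adjusted p = 0.692). Other genes of phosphate and vitamin D handling, taken from the lists, did not reach an unadjusted p under 0.05. The vitamin D receptor Vdr (0.28 ± 0.15) and the FGF23 co-receptor Kl (0.26 ± 0.14) had positive log2 fold changes, and Kl did not overlap between groups (932 to 1090 CPM in sham, 1140 to 1280 CPM in UNx). Cyp27b1, which makes active vitamin D, varied widely in both groups (2.99 to 10.5 and 2.91 to 14.1 CPM). The main phosphate carriers of the proximal tubule overlapped between groups, with log2 fold changes of 0.14 ± 0.16 for Slc34a1 and 0.21 ± 0.28 for Slc34a3.

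Of the loop and distal tubule genes, 3 lay above all sham libraries and 0 passed. Calb1, the calcium-binding protein calbindin, was at 625, 524 and 569 CPM in sham and at 641, 1070 and 1100 CPM in UNx kidneys. The male UNx library was barely above the sham range and the 2 female ones well above it (0.71 ± 0.36, adjusted p = 1.0). Slc8a1, the sodium-calcium exchanger that works with it, was at 329 to 380 CPM in sham and at 438, 415 and 681 CPM in UNx kidneys (0.53 ± 0.34). In CrePlus kidneys these 2 genes had log2 fold changes of 0.04 and 0.05. Of 19 genes of the loop and distal tubule, 15 were higher and 4 lower, and the median log2 fold change was 0.09, beside 0.0047 over all genes. The median was 0.20 without sham replicate 2 and 0.20 without UNx replicate 1. Pvalb, the calcium-binding protein parvalbumin of the distal convoluted tubule, was lower (-0.86 ± 1.04). The third gene without overlap was Kcnj1, the potassium channel ROMK (0.18 ± 0.21).

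Ttr, which encodes the thyroid hormone and retinol carrier transthyretin, had the other DESeq2 call. It was at 40.5, 52.4 and 37 CPM in sham and at 282, 162 and 157 CPM in UNx kidneys. The lowest UNx library was far above the highest sham library. The log2 fold change was 2.21 ± 0.50 (interval 1.11 to 3.31), with an adjusted p of 1.0 in edgeR and 0.00867 in DESeq2. In CrePlus kidneys the sham libraries ranged from 34.7 to 119 CPM and the UNx libraries from 62.3 to 198 CPM, with overlap. Cacna2d2, an auxiliary subunit of voltage-gated calcium channels (chr9:107399733-107529346), had the largest fold change of the 24 genes of smallest p. It was at 0.679, 1.69 and 1.31 CPM in sham and at 7.95, 10.9 and 7.2 CPM in UNx kidneys (2.82 ± 0.90, adjusted p = 1.0). In CrePlus kidneys the groups overlapped: sham libraries were at 1.23, 1.05 and 6.18 CPM and UNx libraries at 14.9, 8.59 and 1.05 CPM.

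Enzymes of serine and one-carbon metabolism were also named. Psat1, the phosphoserine aminotransferase of serine synthesis (chr19:15905123-15925059), was at 17.9, 23.8 and 20.7 CPM in sham and at 55.7, 32.7 and 28.2 CPM in UNx kidneys. Its log2 fold change was 0.91 ± 0.25, and 0.79 in CrePlus kidneys (adjusted p = 1.0 and 0.692). Leaving out UNx replicate 1, its highest library, gave 0.55, the lowest of the values with 1 library left out. Mthfd2, the mitochondrial folate enzyme that uses serine-derived one-carbon units, was at 3.35, 2.54 and 2.71 CPM in sham and at 3.75, 5.47 and 4.41 CPM in UNx kidneys (0.66 ± 0.22; 0.73 in CrePlus kidneys). For both genes the 2 sets of kidneys, which share no sample, gave estimates of like size.

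The other 7 genes in the upward group did not pass in edgeR either. Lipid genes were Mogat2, an acyltransferase of triglyceride synthesis (14.3 to 20.3 CPM in sham, 28.8 to 30.9 CPM in UNx, 0.84 ± 0.26), and G0s2, an inhibitor of triglyceride lipase (0.40 ± 0.13). Fcgr2b, the inhibitory Fc receptor of B cells, macrophages and endothelium, had 0.38 ± 0.12 here and -0.13 in CrePlus kidneys. Stk32a, a kinase, had 0.44 ± 0.14 and 0.50. The rest were Tpgs2 (0.34 ± 0.09), a subunit of the tubulin polyglutamylase, the phosphatase Ppm1h (0.28 ± 0.09), and the noncoding Zfp85os (0.95 ± 0.29), whose reads cannot be told from those of the gene on the other strand.

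Kcnt1 was among the lower genes of smallest p. This sodium-activated potassium channel (chr2:25863791-25918273) was at 22.5, 24.8 and 22.4 CPM in sham and at 8.46, 9.61 and 11.9 CPM in UNx kidneys. The 3 sham libraries were close together and well above all UNx libraries. The log2 fold change was -1.22 ± 0.32 (interval -1.93 to -0.52) with an adjusted p of 1.0 in edgeR. In CrePlus kidneys it was -1.65 (adjusted p = 0.692), and there Kcnt1 was 1 of the 9 genes that DESeq2 called. The interaction was -0.43 (adjusted p = 1.0).

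The remaining lower genes had smaller or less even differences. Ajuba, a LIM protein of the Hippo pathway and of cell junctions, was at 36.3 to 40.4 CPM in sham and at 28.9 to 30.8 CPM in UNx kidneys (-0.35 ± 0.08). Phip, a chromatin-binding ubiquitin ligase subunit, had -0.33 ± 0.09, and Sfpq, a nuclear splicing factor, had -0.32 ± 0.11 here and -0.32 in CrePlus kidneys. Fgfbp1, which releases fibroblast growth factors from the matrix, had -0.85 ± 0.27, and Pxylp1, a phosphatase of proteoglycan linkers, had -0.96 ± 0.35. Prim1, the catalytic primase subunit of DNA replication, was at 8.14 to 10.4 CPM in sham and at 6.18 to 7.27 CPM in UNx kidneys (-0.42 ± 0.14), against 0.15 in CrePlus kidneys. Hoxc9, Tssk6 and the noncoding Dio3os had log2 fold changes from -0.83 to -0.54.

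**Figure D2:**
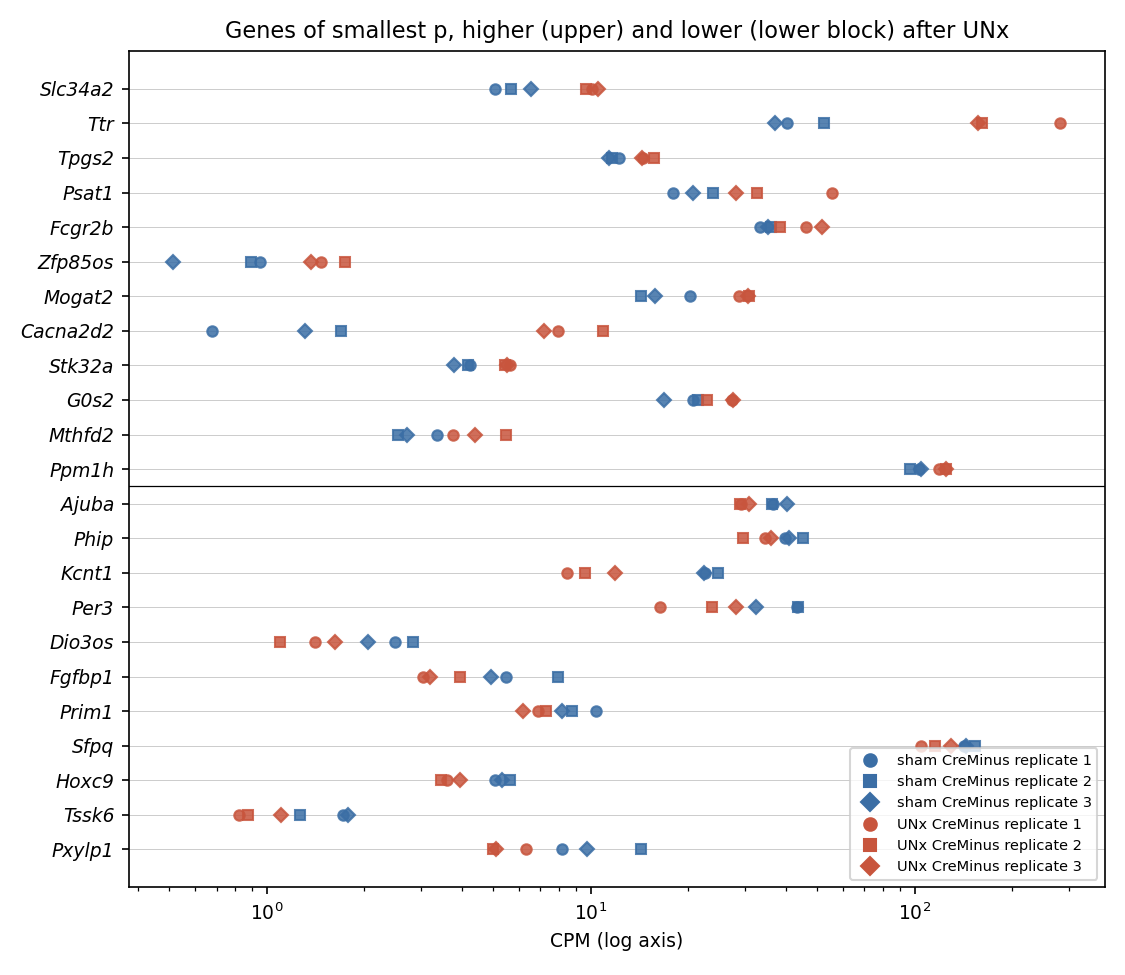
CPM on a log axis (x) of 23 of the 24 genes of smallest p without overlap (y), higher after UNx in the upper and lower in the lower block; each point is 1 CreMinus library, blue for sham and red for UNx. The absence of overlap was part of the rule that chose these genes; Ttr, Cacna2d2 and Kcnt1 show the widest gaps.

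Clock genes were the list with the most members at an unadjusted p under 0.05. The circadian clock is a loop in which BMAL1 (Arntl) pairs with CLOCK or NPAS2 and switches on the Per, Cry, Nr1d1, Nr1d2, Dbp and Tef genes through E-boxes. PER and CRY proteins then inhibit that pair, REV-ERB proteins (Nr1d1, Nr1d2) repress Arntl and Npas2 through AGGTCA half-sites, and DBP, TEF and HLF act on D-boxes. Most of these genes swing daily in the kidney, so that their level depends on the hour of sampling. Of 18 clock genes tested, 0 passed, 1 was higher and 4 were lower at an unadjusted p under 0.05, 2 lay above and 4 below all sham libraries, and the median log2 fold change was -0.19.

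Promoters from RefSeq (GRCm38.p6) are shown for 3 clock genes whose log2 fold changes differ in sign, since each carries a match to 1 of the loop's 3 motifs. Each runs 5′ to 3′ on the gene's strand, from 250 bases before to 50 after the start, and capitals mark the match on either strand. Per3 (chr4:151044616-151044915, minus strand) has 2 matches to the D-box TTATGTAA, Tef (chr15:81802423-81802722, plus strand) has 1 to the E-box CACGTG, and Arntl (chr7:113207261-113207560, plus strand) has 1 to the half-site AGGTCA.
Per3: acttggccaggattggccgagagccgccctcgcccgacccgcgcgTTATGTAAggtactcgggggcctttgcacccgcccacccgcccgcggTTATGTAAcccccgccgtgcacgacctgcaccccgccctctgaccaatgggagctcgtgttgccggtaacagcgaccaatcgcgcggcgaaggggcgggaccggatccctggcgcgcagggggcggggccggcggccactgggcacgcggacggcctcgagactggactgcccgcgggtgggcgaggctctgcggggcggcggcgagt
Tef: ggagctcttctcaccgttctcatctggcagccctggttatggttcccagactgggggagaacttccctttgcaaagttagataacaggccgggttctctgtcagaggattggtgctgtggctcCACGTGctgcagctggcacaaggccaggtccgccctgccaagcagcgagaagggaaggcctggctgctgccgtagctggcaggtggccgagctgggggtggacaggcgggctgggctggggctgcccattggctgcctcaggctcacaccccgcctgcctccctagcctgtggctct
Arntl: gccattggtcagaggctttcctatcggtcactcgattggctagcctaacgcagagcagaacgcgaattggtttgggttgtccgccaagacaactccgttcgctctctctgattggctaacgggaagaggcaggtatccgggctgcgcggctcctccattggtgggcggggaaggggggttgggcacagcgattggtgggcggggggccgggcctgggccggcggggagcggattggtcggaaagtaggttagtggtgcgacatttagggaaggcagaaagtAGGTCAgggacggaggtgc
Over all 32851 RefSeq promoters of this length, 0.938% hold the D-box, 7.15% the E-box and 16.3% the half-site. Of the 15 clock genes with an entry, 1 holds the D-box, 5 the E-box and 5 the half-site. Genes with the same motif had log2 fold changes of both signs. The half-site is in Arntl, Clock and Nfil3, with positive values, and in Nr1d2 and Per1, with negative ones. The E-box is in Cry1, with a positive value, and in Bhlhe41, Ciart, Per1 and Tef, with negative ones. A match is a description of the letters and not a binding site.

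Per3, the gene with the 2 D-box matches, was at 43.3, 43.7 and 32.5 CPM in sham and at 16.4, 23.7 and 28.2 CPM in UNx kidneys. All UNx libraries were lower, and the log2 fold change was -0.81 ± 0.21 (interval -1.28 to -0.34; adjusted p = 1.0). Per2, another period gene, was at 22.2, 28.5 and 20.4 CPM in sham and at 13.1, 17.8 and 11.5 CPM in UNx kidneys (-0.75 ± 0.33). Tef was at 312, 378 and 352 CPM in sham and at 311, 280 and 243 CPM in UNx kidneys (-0.32 ± 0.14), with sham replicate 1 and UNx replicate 1 almost equal. Nr1d2, a REV-ERB repressor, had -0.33 ± 0.13.

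Arntl, on the opposite limb of the loop, was at 5.34, 2.72 and 6.5 CPM in sham and at 11, 7.27 and 13.2 CPM in UNx kidneys. The log2 fold change was 1.11 ± 0.39 (interval 0.25 to 1.97; adjusted p = 1.0). Npas2, its partner, overlapped between groups (2.11 to 7.01 CPM in sham, 4.28 to 10.9 CPM in UNx, 0.81 ± 0.48). Dbp was highest in sham replicate 2 (136 CPM) among the sham libraries and in UNx replicate 2 (114 CPM) among the UNx libraries, which were also those of lowest Arntl in each group. Per3 did not follow this: UNx replicate 3 had both the highest Arntl and the highest Per3 of the UNx libraries. Dbp was at 43.7 and 52.3 CPM in the other 2 UNx libraries. The list's median log2 fold change of -0.19 was -0.07 without sham replicate 2 and -0.31 without sham replicate 3.

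The same clock genes had like values in CrePlus kidneys, which share no library with the CreMinus kidneys. There the log2 fold changes were -0.84 for Per3, 1.09 for Arntl, 1.29 for Npas2, -0.43 for Tef, -0.43 for Per2, -0.75 for Dbp and -0.25 for Nr1d2, and 0 genes passed in edgeR. The interaction was -0.03 for Per3 and -0.02 for Arntl (adjusted p = 1.0 for both). Library number followed surgery for the CreMinus kidneys, and the hour of harvest is not given, so its part in these values was not tested.

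**Figure D3:**
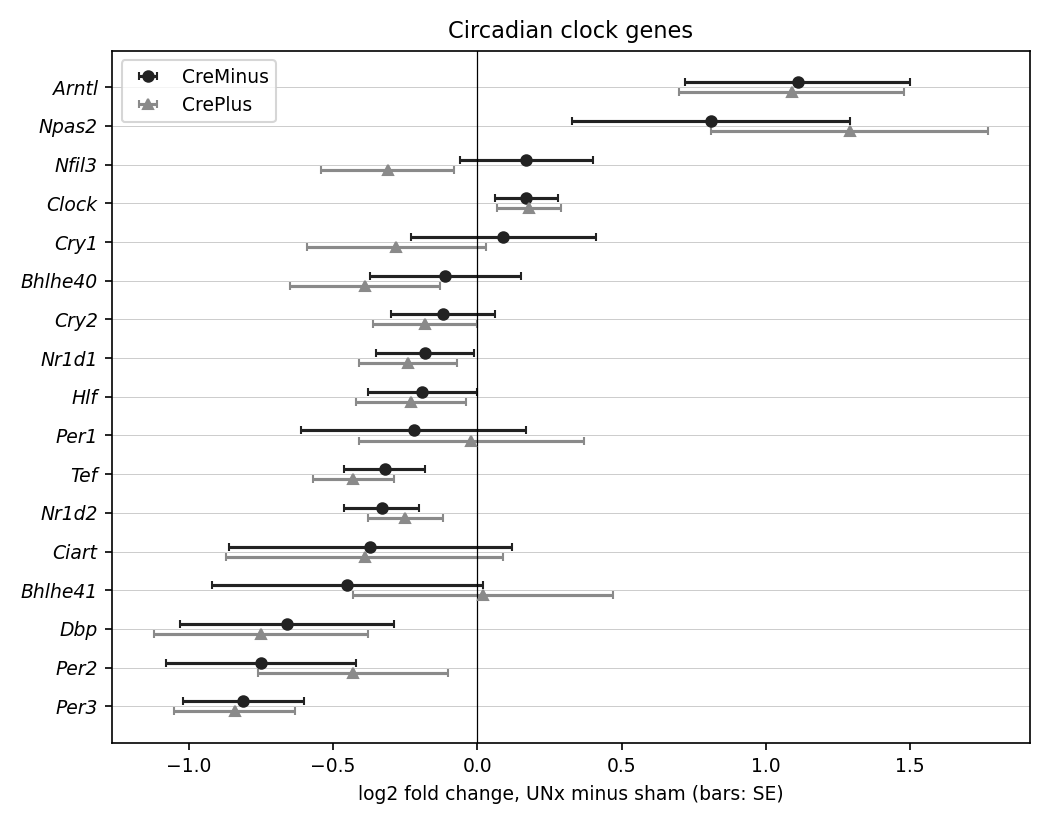
Log2 fold change of UNx over sham (x axis; bars are the standard error) for 17 of the 18 clock genes (y axis) in CreMinus (circles) and CrePlus kidneys (triangles). Arntl and Npas2 lie to the right of 0 and Per3, Per2 and Dbp to the left in both sets of kidneys.

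Cell division genes were higher in 2 of the 3 UNx kidneys and not in the third. All 20 genes of the cell cycle and DNA replication list had a positive log2 fold change, with a median of 0.76, yet 0 passed, 0 reached an unadjusted p under 0.05 and 1 had no overlap. Replication genes were uneven in size. The log2 difference in females and in males was 0.1 and 0.14 for Mcm2, -0.03 and 0.11 for Mcm6, and 0.56 and 0.95 for Rrm2. Prim1, the primase gene named above and not on this list, was lower (-0.42 ± 0.14). The proliferation marker Mki67 was at 8.37, 5.03 and 8.18 CPM in sham and at 15.1, 15.4 and 5.57 CPM in UNx kidneys. Top2a, the topoisomerase of dividing cells, was at 6.02, 3.57 and 4.82 CPM in sham and at 10.1, 14.8 and 3.7 CPM in UNx kidneys. UNx replicates 1 and 2, a male and a female, were both above all sham libraries for 18 of the 20 genes. UNx replicate 3 was above them for 2 genes, within their range for 13 and below it for 5. For counts over 1 or 2 of the UNx libraries, here and below, no share over all genes was taken. The background given above is for all 3 UNx libraries. The gene without overlap was Aurka, a mitotic kinase (1.55 to 1.99 CPM in sham, 2.08 to 5.15 CPM in UNx, 0.98 ± 0.45). UNx replicate 2, the library with Havcr1 at 121 CPM, was the highest of the 6 for 18 of the 20 genes, and without it the median was 0.40, with 19 genes higher. The part of injury in these values was not tested. Without UNx replicate 3 the median was 1.08, with 7 genes at an unadjusted p under 0.05 and 0 called, and the count of all genes at that threshold was 946 (6.27%) in place of 194. In CrePlus kidneys all 20 genes were higher, with a median of 1.14.

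**Figure D4:**
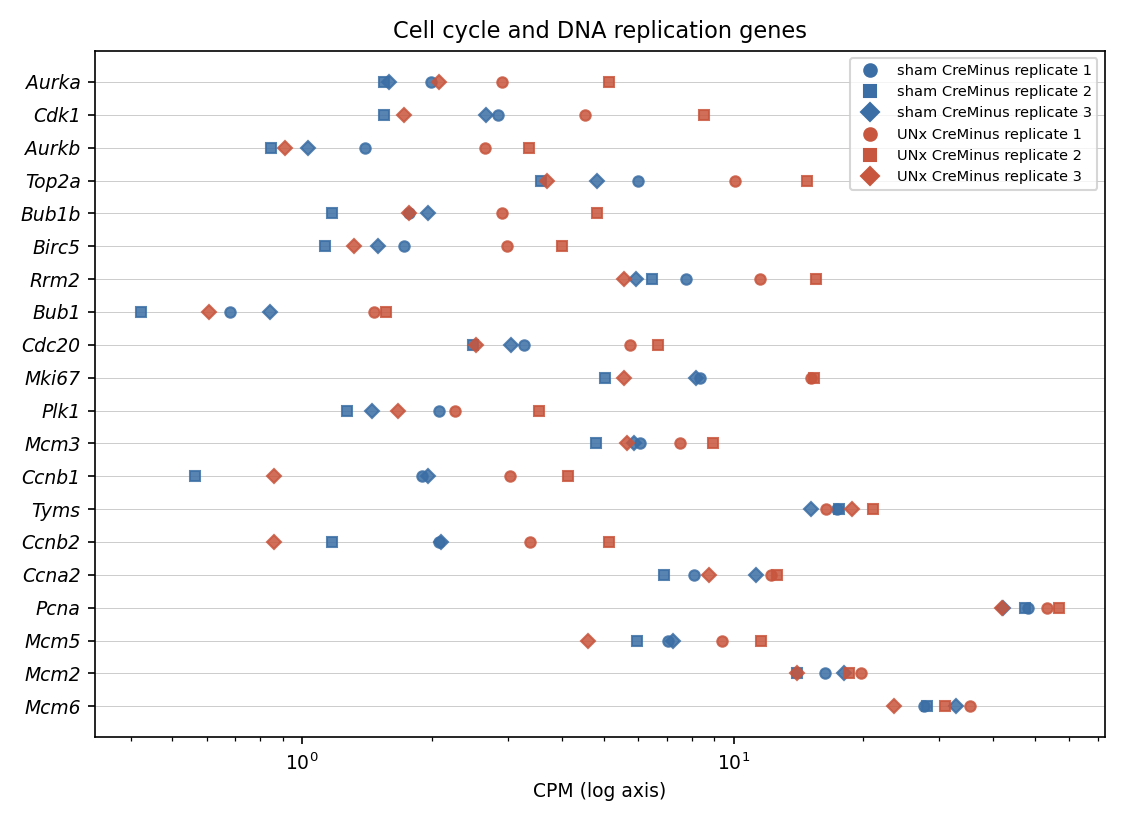
CPM on a log axis (x) of the 20 cell cycle and DNA replication genes (y), ordered by p; each point is 1 CreMinus library, blue for sham and red for UNx. UNx replicates 1 and 2 lie to the right for most genes, and UNx replicate 3 lies among the sham libraries.

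Regulators of entry into the cycle and of growth differed little. Of 15 G1 cyclins and cell cycle inhibitors, 11 were higher and 4 lower, with a median log2 fold change of 0.06 (0.01 without UNx replicate 2 and 0.14 without UNx replicate 1). Ccnd1, cyclin D1, was at 254 to 352 CPM in sham and at 264 to 401 CPM in UNx kidneys (0.00 ± 0.22). Growth factors and their receptors were 8 higher and 11 lower of 19 (median -0.05, and 0.03 without sham replicate 2): Egf had 0.08 ± 0.28, Igf1 had -0.06 ± 0.20 and the IGF receptor Igf1r had -0.16 ± 0.17. PI3K and mTORC1 signalling genes were 10 higher and 9 lower of 19 (median 0.02, and -0.01 without UNx replicate 1), and Akt2, a kinase of that pathway, was narrowly bounded (-0.01 ± 0.07; interval -0.15 to 0.14). Cytosolic ribosomal protein genes were all 20 lower, by a median of 0.10 on the log2 scale, with 0 passing and 0 free of overlap. Without sham replicate 1 the median was -0.03, with 4 genes higher, and without sham replicate 3 it was -0.17. Ribosome biogenesis genes were 9 higher and 9 lower.

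Metabolic lists leaned upwards by small amounts. Glycolysis genes were higher in 15 of 15 (median 0.11), gluconeogenesis genes in 10 of 10 (0.14), fatty acid synthesis genes in 13 of 13 (0.12), respiratory chain genes in 18 of 20 (0.06), cholesterol synthesis genes in 16 of 20 (0.08) and oxidative stress genes in 15 of 17 (0.15). In all 6 lists 0 members passed. Without UNx replicate 2 the glycolysis median was 0.05, with 10 of 15 higher, and the gluconeogenesis median 0.08, with 8 of 10 higher. Without UNx replicate 3 the medians were 0.28 for gluconeogenesis, 0.11 for the respiratory chain and 0.22 for cholesterol synthesis. Without UNx replicate 1 they were 0.19 for fatty acid synthesis and 0.06 for oxidative stress. Genes of one list share libraries and are not independent, and in CrePlus kidneys the same lists had 5 of 15, 6 of 10, 5 of 13, 6 of 20, 11 of 20 and 8 of 17 members higher. Eno1, an enolase, was at 33 to 36.8 CPM in sham and at 44.6, 56.6 and 37.2 CPM in UNx kidneys (0.40 ± 0.16), and -0.01 in CrePlus kidneys. The sterol enzyme Nsdhl was at 71.3 to 77.9 CPM in sham and at 84.6 to 94.5 CPM in UNx kidneys (0.25 ± 0.09; 0.20 in CrePlus kidneys), and Msmo1, which acts at the same step, had 0.32 ± 0.12.

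Along the nephron, proximal tubule genes were higher in 15 of 20 (median 0.11), led by the glucose carrier Slc5a2 (454 to 557 CPM in sham, 550 to 740 CPM in UNx, 0.42 ± 0.19). Without UNx replicate 2 the median was -0.06, and without UNx replicate 3 it was 0.21. Aqp1, the water channel, was below all sham libraries (-0.17 ± 0.15). Principal cells of the collecting duct had 3 of 12 genes higher and a median of -0.07, which was 0.06 without UNx replicate 1. Among them Aqp4, the basolateral water channel, was at 103, 187 and 115 CPM in sham and at 80.4, 73.5 and 67.1 CPM in UNx kidneys (-0.88 ± 0.39; -0.82 in CrePlus kidneys). The vasopressin-regulated channel Aqp2 overlapped between groups (0.01 ± 0.36). Intercalated cell genes (3 of 11 higher, median -0.14) and podocyte genes (2 of 10 higher, median -0.10) were lowest in UNx replicate 1, with list scores of -0.47 and -0.45. Without that library the podocyte median was 0.05 and the intercalated cell median -0.02. A list score is the mean log2 CPM of a library's list members relative to the sham mean.

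**Figure D5:**
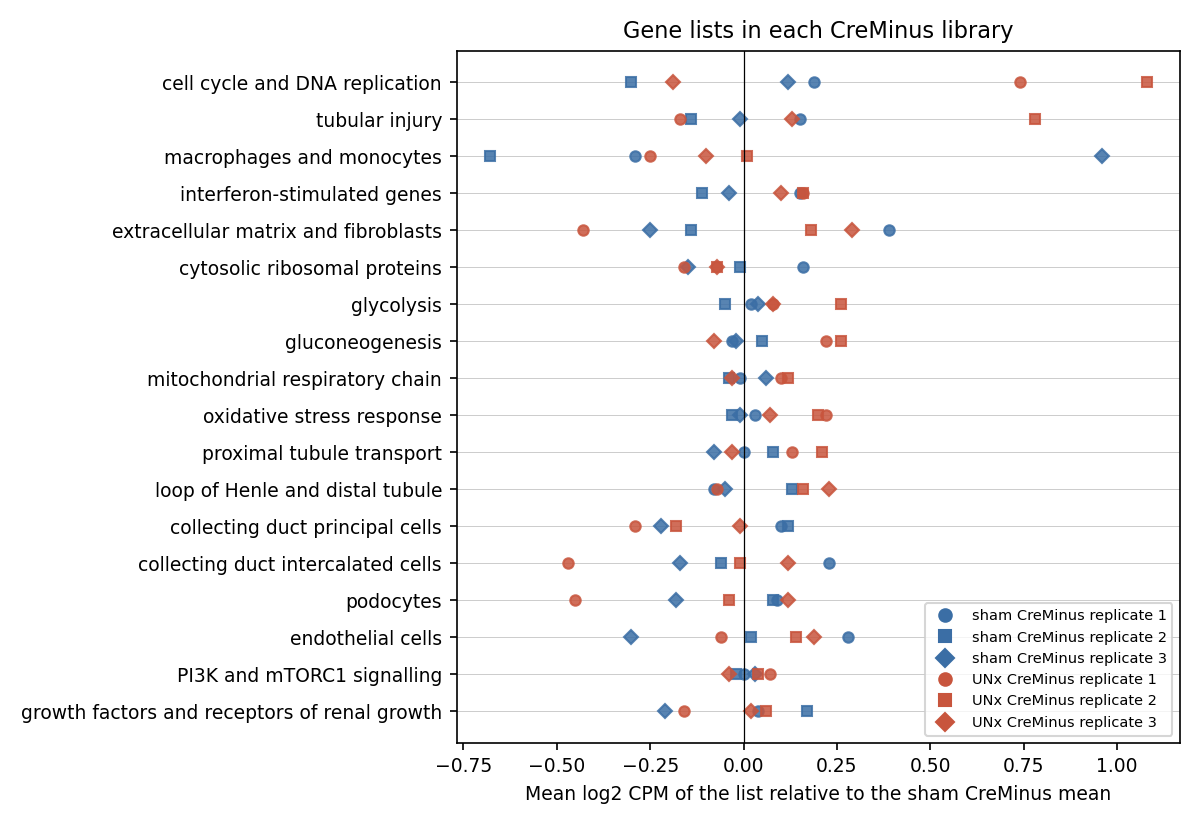
List scores (x axis; mean log2 CPM of the list relative to the sham CreMinus mean) of 18 gene lists (y axis) in each CreMinus library, blue for sham and red for UNx. Sham replicate 3 lies at 0.96 for macrophage genes, UNx replicate 2 at 0.78 for injury genes, and UNx replicates 1 and 2 at 0.74 and 1.08 for cell cycle genes; most other lists overlap between the groups.

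Of the injury genes, Havcr1 was high in 1 kidney, and the list as a whole was mixed. Havcr1, the injury marker KIM-1 of proximal tubules, was at 2.17, 1.32 and 12.3 CPM in sham and at 2.88, 121 and 1.52 CPM in UNx kidneys. UNx replicate 2 was alone at that level, and Lcn2, another injury gene, was at 2.3 CPM there against 0.507 to 1.22 CPM elsewhere. That library was also the highest for Krt20, Cdkn1a, Tnfrsf12a, Spp1, Fgb and Krt18, some by little. The other members peaked elsewhere. Clu, Sox9, Vcam1 and Krt7 did so in UNx replicate 3, and Krt8 in UNx replicate 1. Anxa2, Anxa3, S100a6 and Plaur were highest in sham replicate 1, and Cd44 in sham replicate 3. Clu, the secreted chaperone clusterin, was the 1 injury gene without overlap (243 to 303 CPM in sham, 308, 355 and 515 CPM in UNx, 0.56 ± 0.34). Injury genes were higher in 13 of 18, with a median of 0.12. The median was -0.02 without UNx replicate 2, -0.03 without sham replicate 3 and 0.33 without sham replicate 1.

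Macrophage genes were set by 1 sham library. Sham replicate 3 was the highest of the 6 for 18 of 19 macrophage and monocyte genes. The share of all genes that were highest in that library was not counted. Lyz2, the lysozyme of myeloid cells, was at 116 CPM there, at 14.4 and 6.76 CPM in the other sham libraries, and at 12.1 to 15.4 CPM in UNx kidneys. With that library the list had 17 of 19 genes lower after UNx and a median of -0.24, and without it 18 of 19 were higher and the median was 0.40. The receptor Csf1r was nearly even across all 6 libraries (68.2 to 79.7 CPM). Neutrophil and T cell genes were near the floor of detection, with summed levels of 4.04 to 10.7 CPM and 3.57 to 10.9 CPM. The rule named 2 of them, Gzmb (0.187 to 0.815 CPM in sham, 0 to 0.154 CPM in UNx) and Il7r (0.0935 to 0.136 and 0.152 to 0.552 CPM), at levels of few reads. Interferon-stimulated genes were 14 of 16 higher by a median of 0.14, and matrix and fibroblast genes 13 of 21 by a median of 0.12, against 0.71 and 0.78 in CrePlus kidneys. The interferon median was 0.07 without sham replicate 3. The matrix median was -0.11 without UNx replicate 3, with 7 of 21 higher, and 0.35 without sham replicate 1, with 18 of 21 higher.

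Neighbouring tissues were scarcely present. Urothelial genes summed to 2.63 to 5.43 CPM, adrenal genes to 8.31 to 16.3 CPM and skeletal muscle genes to 25 to 61.1 CPM. Nearly all of the last sum was Pvalb (22.1 to 59.7 CPM), which is also a distal tubule gene, while Myh1, Mylpf and Actn3 stayed at or under 3.38 CPM. The urothelial plaque gene Upk1a was at 0.705 to 0.982 CPM in sham and at 1.27 to 1.47 CPM in UNx kidneys (0.73 ± 0.30). Of the fat cell genes, Pck1 is also a kidney gene, and Ucp1, Cfd and Cidec stayed at or under 1.31 CPM in all 6 libraries.

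The CreMinus values were last set beside those of the CrePlus kidneys. UNx against sham in CrePlus kidneys gave 0 calls in edgeR (0%), 1022 genes (6.83%) at an unadjusted p under 0.05 and a median size of the log2 fold change of 0.12. The UNx CrePlus group held 1 female and 2 male mice against 2 and 1 in its sham group, so sex was unbalanced there. With a term for sex, edgeR also called 0 genes in CrePlus kidneys. The 3 UNx CrePlus libraries were all deeper than the sham CrePlus ones, so depth cannot be told apart from surgery there. The interaction of Cre status and surgery gave 0 calls (0%) and 277 genes (1.85%) at an unadjusted p under 0.05. It therefore did not show that the effect of nephrectomy differs between CreMinus and CrePlus kidneys. Of the 194 CreMinus genes at an unadjusted p under 0.05, 151 (77.8%) had the same sign in CrePlus kidneys, beside 8494 of all 14970 genes (56.7%). Both comparisons reached that threshold for 43 genes. Of these, 37 (86.0%) had the same direction, 20 higher and 17 lower, and the rest had opposite directions. Among the 37 were Slc34a2, Psat1, Mthfd2, Stk32a, Cyp24a1, Arntl and Nsdhl, which were higher, and Kcnt1, Per3, Tef and Sfpq, which were lower.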

How the data were processed

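The 6 CreMinus libraries, made from total RNA of kidneys, were compared by RNA-seq, with 6 CrePlus libraries in the same model. Per the labels' protocols, the SMART-Seq v4 kit was used. It does not mark strand, so overlapping and antisense genes cannot be told apart. The submitters' processing notes name HTSeq, DESeq2, FastQC 0.11.5 and cutadapt 1.11, and the builds mm10 and GRCm38. The aligner and annotation were not given in the sources used. The deposited table holds whole-number read counts per gene, not normalized, for 24067 genes, of which 5 repeated symbols were dropped. Depth was 18914300 to 42785476 counts a library.

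edgeR 4.0.16 in R 4.3.3 was used with filterByExpr (14970 genes), TMM, and 1 quasi-likelihood model with 4 group means over 12 libraries. A Benjamini-Hochberg adjusted p under 0.05 was the threshold. CPM use TMM-scaled sizes, and list scores use log2 CPM with a prior count of 2. Intervals are 95%. The scripts were tested on simulated counts. DESeq2 1.42.0, other filters and scaling, sex terms and leaving out each CreMinus library were tried. Replicates were numbered in accession order, since the labels give no replicate numbers.

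Where fewer than 10 genes passed, the naming rule took the 12 of smallest p per direction that averaged 1 CPM or more, had no overlap and had no systematic symbol. It added Pkd1, Irf5 and up to 2 members of each list at an unadjusted p under 0.05, which gave 35 genes. Of 630 entries in 41 lists, 621 matched. The comparison and the lists were chosen with earlier results of these data known. Other genes given are list members or were chosen after their values were seen. Results for some single genes that the rule or the lists hold are left out of the text and figures. Positions come from a RefSeq table for GRCm38, matched by gene identifier.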

Additional observations from a re-analysis of the deposited data

How the results depend on the processing

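In all alternatives that used edgeR, 0 genes were called for UNx against sham in CreMinus kidneys, and 0 in CrePlus kidneys and for the interaction where these were run. DESeq2 called 2 genes (Slc34a2 and Ttr), 9 genes in CrePlus kidneys (Aldh1a7, Clca1, Bcl6, Kcnt1, Cish, Cxcl16, Irf7, Mlph and Cd34) and 0 for the interaction. Genes at an unadjusted p under 0.05 numbered 194, and 385 with a term for sex, 523 in the 6 CreMinus libraries with that term (chosen after seeing the data; smallest adjusted p = 0.0532 in edgeR), 206 in the females (0.0596), 946 without UNx replicate 3 (0.0583) and 119 to 228 without any other library; the cause was not tested. Of 35 named genes, 34 kept their direction in every alternative that held them, which was 15 for 33 genes and 12 for Gzmb and Il7r. Irf5 ranged from -0.15 to 0.10 with 1 library left out. At this depth and with 3 libraries a group, the 95% interval lay inside a 1.5-fold change for 59.8% of genes. For the rest the interval reached beyond that size. An interval inside it bounds a difference and does not mean that a smaller one could be shown. No paired analysis was possible because the labels give no replicate numbers.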

Other observations

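Serine and one-carbon genes other than Psat1 and Mthfd2, looked at after those values were seen, overlapped between the groups. Phgdh, the first enzyme of serine synthesis, was at 12.8, 19.2 and 8.23 CPM in sham and at 12.7, 35.7 and 9.07 CPM in UNx kidneys, with a log2 fold change of 0.51 ± 0.51. Psph had 0.16 ± 0.14, Shmt2 had 0.07 ± 0.22 and Asns had 0.17 ± 0.27. Atf4, which encodes a transcription factor of the amino acid response, had -0.05 ± 0.16. Genes of calcium and phosphate transport chosen in the same way also overlapped: S100g, a small calcium-binding protein, had 0.20 ± 0.30, the phosphate carriers Slc20a1 and Slc20a2 had 0.14 ± 0.17 and 0.06 ± 0.14, and the parathyroid hormone receptor Pth1r had 0.07 ± 0.15.

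Genes known to differ between male and female mouse kidneys followed the sex of the library. Cyp7b1 was at 165 and 209 CPM in the male sham and UNx libraries and at 1.84 to 2.48 CPM in the 4 female ones. Prlr, the prolactin receptor, was at 12.8 and 30.1 CPM in males and at 239 to 385 CPM in females. The median log2 fold change of these 16 genes with surgery was 0.01, and -0.85 without UNx replicate 1 and 0.81 without sham replicate 3, the 2 male libraries.

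The remaining lists also had 0 members that passed in edgeR. Polycystin and cystic disease genes were 13 higher and 7 lower of 20, with a median log2 fold change of 0.02 (-0.04 without sham replicate 1). Pkd2, which encodes the partner of polycystin-1, had -0.19 ± 0.12, and Pkhd1, the gene of the recessive disease, had 0.00 ± 0.10. Interferon regulatory factors and macrophage polarisation genes were 9 higher and 7 lower of 16 (median 0.01), and chemokines and macrophage growth factors 6 higher and 5 lower of 11 (0.04). Without sham replicate 2 these medians were -0.10 and -0.23, and without sham replicate 3 they were 0.09 and 0.13. Endothelial genes were higher in 11 of 12 (0.08) and smooth muscle, pericyte and mesangial genes in 2 of 10 (-0.18). Without sham replicate 3 the endothelial list had 4 of 12 higher (-0.07), and without sham replicate 1 the smooth muscle list had 7 of 10 higher (0.10). Immediate-early genes were higher in 12 of 20 (0.07), endoplasmic reticulum stress and heat shock genes in 9 of 18 (0.00), and genes of fatty acid oxidation in 13 of 18 (0.03). The first 2 medians were 0.45 and 0.11 without sham replicate 1 and -0.05 and -0.05 without sham replicate 3, and the third was -0.04 without UNx replicate 2. Renin, aldosterone and volume genes, the list that holds Cyp24a1, were higher in 8 of 12 (0.12, and 0.03 without UNx replicate 2). B cell genes were higher in 1 of 4 and erythroid and platelet genes in 1 of 4, with summed levels of 2.12 to 4.89 CPM and 73.6 to 146 CPM. Most of the latter sum was Slc4a1 (42.9 to 117 CPM), which is also an intercalated cell gene. Klf4, a transcription factor of epithelium and endothelium, was the immediate-early gene below all sham libraries (9.73 to 11.6 CPM in sham, 8 to 9.2 CPM in UNx, -0.32 ± 0.17).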
